A study of Mus musculus with 2 samples.

Results

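The regions described here are the autosomal regions with few Control tags in a list of places where a Control library of methylated DNA exceeded a Uhrf1 conditional knockout (cKO) library. They were chosen by their tag count, 25 Control tags or fewer after duplicate removal, on chromosomes 1 to 19, and are called thin regions below. There were 3025 of them, 8.72% of the 34675 autosomal regions and part of 35861 regions in all. Both libraries came from primary chondrocytes of C57BL/6 mice, released by collagenase from knee cartilage at postnatal day 3 and exposed as confluent cultures to 100 ng/ml of recombinant human BMP-2 for 24 hours. The groups were Control and Uhrf1 cKO, with 1 library each. The sources used here give neither the driver of the deletion nor any pooling of animals. Captured DNA carries no expression of marker genes, so the labelled cell type was not checked. With 1 library per genotype, nothing below could be checked against a second animal or culture.

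UHRF1 binds hemimethylated CpG sites behind the replication fork and recruits DNMT1, the enzyme that copies methylation onto the new strand. The MBD2 domain used for capture binds DNA by its methylated CpG sites, so the yield of a fragment depends on how many CpGs it has as well as on how many are methylated. A region with few captured tags can be poor in CpG, weakly methylated, methylated in few cells or hard to map. These states were not told apart here. Most mammalian promoters are rich in CpG and unmethylated, while gene bodies are methylated.

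The Control library kept 9782276 tags (44.8% of those sequenced) and the cKO library 15039206 (76.1%), so duplicate removal took a larger part of the Control tags. Before comparison the caller multiplied cKO counts by 0.650. At the genome average this came to 5.23 scaled cKO tags per kb. No thin region lay in Uhrf1 itself (chr17:56303337-56323486, mm10), whose 5 regions held 57 to 235 Control tags. The nearest thin region was 185.3 kb away.

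Among thin regions at promoters, 2 named protein-coding genes had a region within the RefSeq promoter window, which runs from 250 bases before to 50 after an annotated start. Their upstream sequences are shown for the CpG content of the part of each region that they cover. The rest of each region, which for Plin5 includes the summit, lies outside the bases shown. Both sequences are from GRCm38.p6, minus strand, read 5′ to 3′ and limited to bases outside the annotated gene, with each CG in capitals. The first belongs to Piwil4, which encodes a Piwi protein of the germline small RNA pathway (chr9:14740673-14740922). The second belongs to Plin5, which encodes a lipid droplet protein (chr17:56117607-56117798). Plin5 was outside the rule for named genes and was picked for this overlap.
Piwil4: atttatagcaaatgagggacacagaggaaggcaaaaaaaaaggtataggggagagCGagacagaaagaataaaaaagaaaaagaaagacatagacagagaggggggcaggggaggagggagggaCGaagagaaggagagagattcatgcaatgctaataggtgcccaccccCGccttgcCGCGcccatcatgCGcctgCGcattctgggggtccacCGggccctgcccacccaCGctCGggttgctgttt
Plin5: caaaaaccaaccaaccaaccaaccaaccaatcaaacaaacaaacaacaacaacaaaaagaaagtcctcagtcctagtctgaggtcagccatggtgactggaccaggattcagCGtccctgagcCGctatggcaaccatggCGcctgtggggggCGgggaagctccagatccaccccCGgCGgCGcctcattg

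The Piwil4 region (chr9:14740636-14740756) held 12 Control tags, and the cKO library can have held none in it. It covered the last 84 of the 250 bases shown, next to the gene start, and that stretch has 8 CG sites. Its fold in the authors' deposited table was 36.25 and its FDR 100%. The Plin5 region (chr17:56117739-56117995) held 24 Control tags against 7 cKO tags before scaling, a deposited fold of 11.68. It covered only the first 60 of the bases shown, which hold 0 CG sites, while the 7 CG sites of the stretch lie closer to the gene. In the 18 autosomes that the promoter table covers, 11 of 2919 thin regions overlapped a promoter window (0.38%, 95% interval 0.21 to 0.67). With 26 to 50 tags the share was 0.90% (0.65 to 1.25), an interval that overlaps that of thin regions. It was 0.84% with 51 to 100 tags, 0.94% above that up to 200 tags and 1.46% (1.20 to 1.78) with more than 200. Any overlap of the region counted, and median length was 212 bp in thin regions and 628 bp above 200 tags. A longer region meets a window more easily, so these shares cannot separate place from length. The other 9 windows overlapped by thin regions belonged to long noncoding gene models. The 11 windows held 2 to 19 CG sites with a median of 10, and 7 of them had at least 10. Over all 32851 promoter windows the median was 7, and 43.5% had at least 10.

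Thin regions were short and carried a small part of the signal. They held 53583 Control tags in 634.7 kb, which was 1.20% of the tags and 3.83% of the length of all autosomal regions. Their tag counts ran from 11 to 25 with a median of 18. The median length was 212 bp (interquartile range 177 to 247), against 493 bp for the other autosomal regions. The median density was 8.14 tags per 100 bp, against 23.2. These values follow from the choice by tag count and are given as description.

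The authors' fold was larger in thin regions than elsewhere, whereas their FDR was poor. The median deposited fold was 26.37 (interquartile range 19.78 to 31.28), against 11.44 (8.24 to 16.19) for the other autosomal regions. Folds reached 10 in 2999 thin regions (99.1%), where 64.6% of all listed regions reached it. An FDR of at most 5% was listed for 3 thin regions (0.10%), where 56.9% of all listed regions reached it, and 1960 thin regions (64.8%) stood at 100%. Tag count, fold, score and FDR come from the same contrast, so these shares support nothing about methylation. With few tags, only a low background passes the p limit of 1e-10. In regions of at least 116 bp, the smallest window of the caller, 11 tags pass at no more than 0.83 scaled cKO tags, and 25 tags at no more than 5.29. At the boundary of the choice, 173 regions with 25 tags had a median fold of 21.45 and a median FDR of 64.75%, and 191 regions with 26 tags had 20.28 and 57.21%.

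The cKO side of each region, which the list does not give directly, was recovered from the score. The authors' caller takes as background the largest of 4 numbers: the genome average, and the scaled cKO tags of the region itself, of 1 kb and of 10 kb around it. Tag count and score together fix that background, and for all but 2 of the thin regions it matched at least 1 of the 4. Of 1692 thin regions not at the genome average, 335 matched more than 1, and the smallest scale was then kept. In 1333 thin regions (44.1%, 42.3 to 45.8) the background was the genome average, so the cKO library was at or below its own average at all 3 scales. In 1021 (33.8%) it was the cKO count of the region itself, in 291 (9.62%) that of 1 kb and in 378 (12.5%) that of 10 kb. A background that matches a whole count over 1 kb always matches one over 10 kb too. All 291 regions placed at 1 kb therefore also matched 10 kb, and the split between these 2 scales is not certain.

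Folds of the regions at the genome average took only 15 distinct values. Each was a whole number of Control tags at the summit times 3.30, the value of 1 tag over the average background. A summit of 9 tags gave 29.66 in 292 regions, 8 tags gave 26.37 in 290, and 10 tags gave 32.96 in 217. For these regions the fold thus carries the Control height alone and nothing of how far the cKO signal lay below its average. The remaining thin regions formed a broad range around a lower value, with a median of 20.32 where the region's own cKO count set the background.

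**Figure D1:**
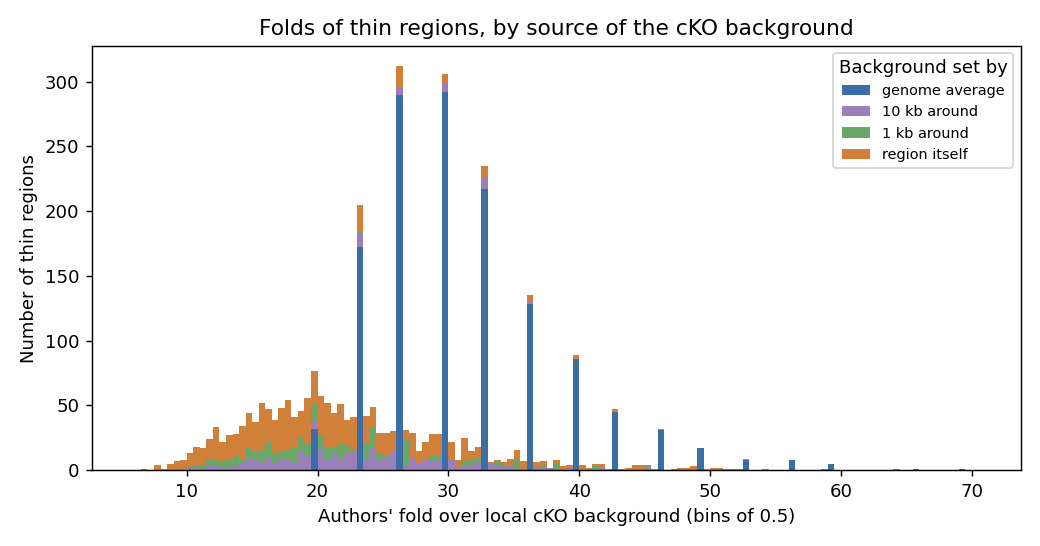
The horizontal axis is the authors' fold in bins of 0.5 and the vertical axis the number of thin regions, coloured by which cKO count set the background. The narrow columns are the 1333 regions at the genome average, with the tallest at 26.37 and 29.66, and the broad lower hump holds the others.

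The share at the genome average depended on tag count. It was 72.7% of the 1097 regions with 11 to 15 tags, 31.1% of the 1025 with 16 to 20 tags and 24.0% of the 903 with 21 to 25 tags. It was 10.02% (9.13 to 10.985) among the 4032 regions with 26 to 50 tags and 0.74% among the 9603 with 51 to 100. Above 200 tags it was 0 of 6815 regions. The median background relative to the genome average was 1.12 in thin regions and 2.96, 9.03, 11.1 and 13.1 in the successive tag classes. This background cannot lie below the genome average and the p limit ties it to the tag count, so the order is built in and says nothing of cKO signal below the average.

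**Figure D2:**
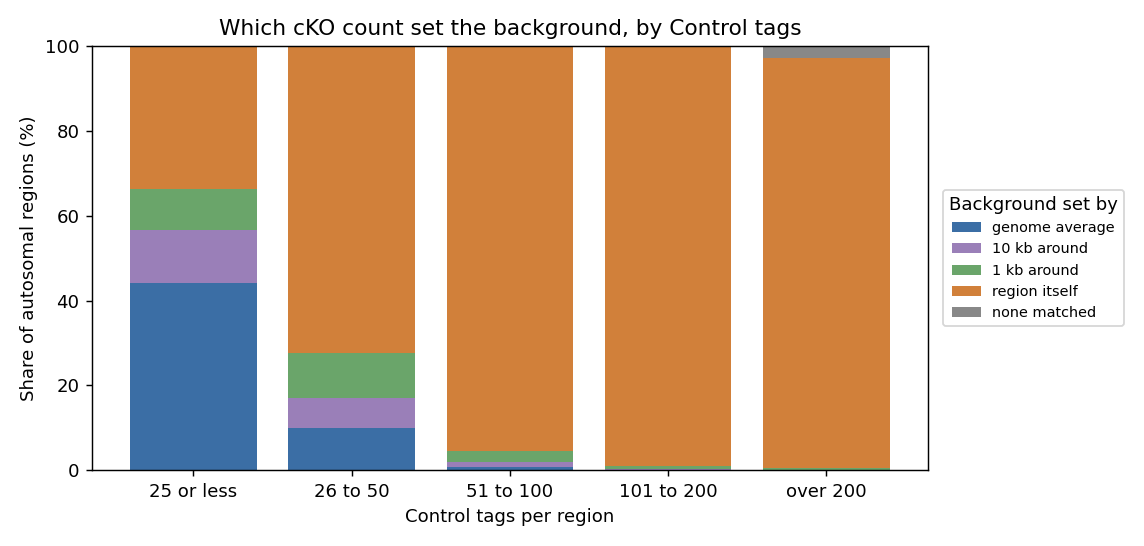
Bars show the share of autosomal regions, in percent, by which cKO count set the background, for 5 classes of Control tags. The genome average accounts for 44.1% of thin regions and 10.02% of those with 26 to 50 tags, and the region's own cKO count for over 95% of those with 51 to 100 tags.

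An upper limit on cKO tags followed for every thin region, since the region's own count cannot exceed the background used. At most 1 unscaled cKO tag was possible in 1295 thin regions (42.8%), at most 2 in 2059 (68.1%) and at most 3 in 2471 (81.7%). In 58 regions none was possible. The highest limit was 8. Where the region's own count was taken as the background, the 1021 regions held 1 to 8 cKO tags, with a median of 3. Their Control tags exceeded the scaled cKO tags by a median ratio of 9.61 (interquartile range 7.38 to 11.8). The 29712 other autosomal regions of this kind held a median of 43 cKO tags, at a ratio of 4.81 (3.50 to 6.77). The lower ratio outside the thin regions is a description too, since a thin region with a small ratio cannot enter the list.

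The thin regions with the largest folds rested on 17 to 25 Control tags. The highest fold, 69.21, belonged to an intergenic region (chr1:95238447-95238599) with 22 Control tags, at most 1 cKO tag and 75.1 kb to the nearest protein-coding gene, Fam174a. The next, 65.92, came from 20 tags in 92 bp (chr10:65544957-65545048), 541.3 kb from the alpha-catenin gene Ctnna3. In both, the background was the genome average. Inside genes, the largest folds were 59.33 for regions in Eef2, which encodes translation elongation factor 2 (21 tags, chr10:81178677-81178795), in Stk33, a kinase gene (18 tags, chr7:109323071-109323170), and in Prkg1, a cGMP-dependent kinase gene (19 tags, chr19:31723298-31723418). None of these 3 can have held a cKO tag. Of the 10 regions with the largest fold, 8 were at the genome average and 2 had 2 cKO tags each, at 64.15-fold (chr1:30575870-30576111) and 58.69-fold (chr9:20574246-20574491).

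The smallest folds came from regions with up to 8 cKO tags. The lowest, 6.86, was a 90 bp region 1.62 kb from Zc3hc1 (chr6:30364720-30364809) with 23 Control tags and 8 cKO tags. A region within Grm3, a glutamate receptor gene, had 21 and 6 tags at 7.70-fold (chr5:9624737-9624819), and one 65.7 kb from Trim24 had 15 and 4 at 7.65-fold (chr6:37805072-37805148). A region within Tenm3 (chr8:48966886-48967152) and an intergenic one on chromosome 12 (chr12:17960903-17961169) had the same 25 and 8 tags over 267 bp and the same fold of 7.96.

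The shortest regions stood apart by place. There were 140 thin regions under 116 bp and 12 such regions among the other 31650. All tags of such a region were counted at its summit, which follows from its length. Of the 12 outside the thin set, 7 were intergenic (58.3%, 32.0 to 80.7), at a median of 124.3 kb from another listed region. Of the 140, 83 were intergenic (59.3%, 51.005 to 67.1), against 1213 of 2885 longer thin regions (42.0%, 40.3 to 43.9). Their median distance to another listed region was 29.0 kb, against 15.1 kb. All 3 thin regions with an FDR of at most 5% were among them: the chromosome 10 region already described (FDR 1.95%), a region in the immunoglobulin kappa locus Igk (21 Control tags and 1 cKO tag, FDR 3.90%, chr6:68883645-68883739), and an intergenic one (21 and 1, FDR 3.92%, chr6:143512713-143512806). The 5 regions with 11 tags and the best scores were also under 116 bp, among them 1 within Sel1l3 (chr5:53139680-53139754) and 1 within Mier3 (chr13:111688636-111688716). How uniquely reads map to these places was not tested.

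Thin regions lay outside genes more often than the other regions, a measure the choice did not use. The summit was intergenic in 1296 thin regions (42.8%, 41.1 to 44.6) and in 10678 of 31650 others (33.7%, 33.2 to 34.3). It was inside a protein-coding gene and over 1 kb from its ends in 1377 (45.5%, 43.8 to 47.3), against 54.0% (53.5 to 54.5). The share at gene ends, within 1 kb, was 3.40% (2.82 to 4.11), against 4.76% (4.54 to 5.005). Other gene models took 8.23% (7.30 to 9.26), against 7.50% (7.21 to 7.79), where the intervals overlapped. The intergenic share decreased over the tag classes, from 42.8% through 37.3%, 34.9% and 32.6% to 31.9% above 200 tags. Within the thin regions it was 46.7% (43.7 to 49.6) at 11 to 15 tags and 39.3% (36.2 to 42.5) at 21 to 25 tags. At the boundary of the choice it was 38.2% (31.2 to 45.6) with 25 tags and 42.4% (35.6 to 49.5) with 26 tags, with overlapping intervals. Regions are not replicates of a genotype, and these intervals cover the counting of regions in this pair of libraries only.

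Starts and finishes of genes were then separated. Shares were taken over all regions of the 18 autosomes that the promoter table covers. Only protein-coding genes with a known strand could count, so these shares can be too low. The summit was within 1 kb of the start of such a gene in 14 of 2919 thin regions (0.48%, 0.29 to 0.80), against 441 of 30561 others (1.44%, 1.32 to 1.58). Within 1 kb of the finish there were 70 (2.40%, 1.90 to 3.02), against 2.64% (2.46 to 2.82), with overlapping intervals. Regions with 26 to 50 tags were between these at starts (0.92%, 0.67 to 1.27), with an interval that overlaps that of thin regions. At finishes they were alike (2.41%).

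**Figure D3:**
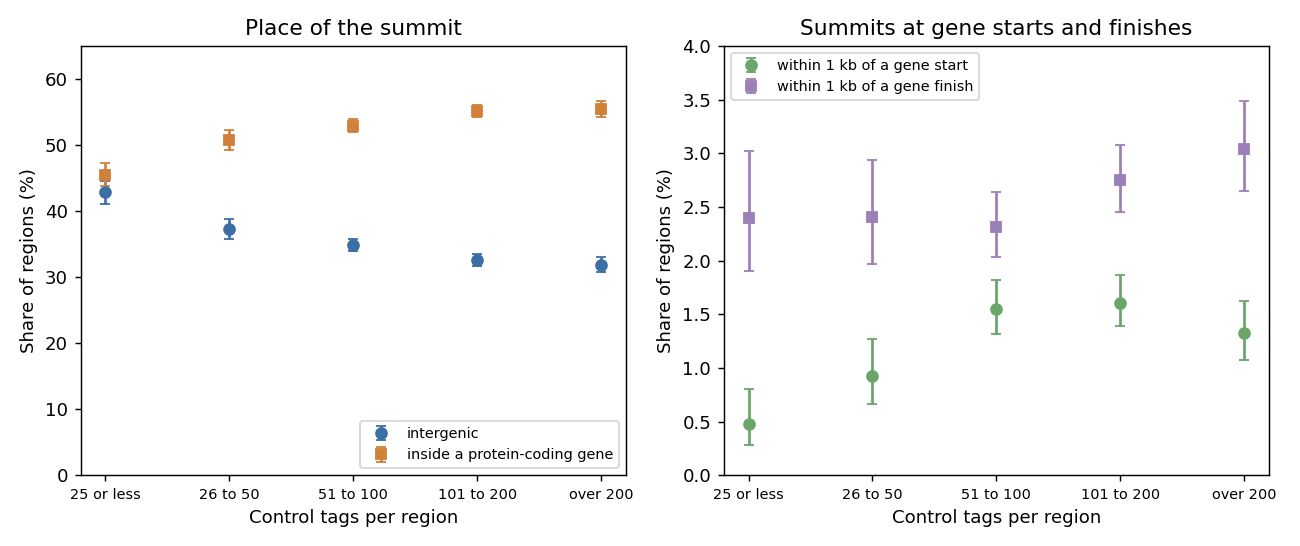
Points are shares of autosomal regions in percent by class of Control tags, with 95% Wilson intervals. The left panel gives intergenic summits and summits inside protein-coding genes. The right panel gives summits within 1 kb of starts and finishes of genes with a known strand, on 18 autosomes. Thin regions have the highest intergenic share (42.8%) and the lowest share at starts (0.48%). Their interval at starts overlaps that of 26 to 50 tags, and their share at finishes (2.40%) overlaps the next classes.

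The named genes with a thin region at an end were mostly touched at the finish. Of 102 such genes, 67 had the region at the finish, 15 at the start and 20 had no strand in the table, and they shared 94 regions. The largest fold was 56.03, for a region (chr17:6738262-6738438) with 22 Control tags and at most 1 cKO tag. It lay at the finish of both Ezr, which encodes the membrane-to-actin linker ezrin, and the neighbouring vesicle-trafficking gene Sytl3. Eml1, which encodes a microtubule-binding protein, had 24 tags at its finish (46.14-fold, chr12:108538818-108539072), and Rexo2, an oligoribonuclease gene, had 25 (42.85-fold, chr9:48469097-48469335). The finish was also the end touched in Dusp10, a MAP kinase phosphatase (23 tags, 36.25-fold, chr1:184075690-184075976), Fgf2, a fibroblast growth factor (16 tags, 32.96-fold, chr3:37409803-37409965), and Spry1, an antagonist of receptor tyrosine kinase signalling (19 tags against 2 cKO tags, 32.76-fold, chr3:37644511-37644716). The region of Stk11, the kinase LKB1, was shared with its neighbour Cbarp (22 tags, 32.96-fold, chr10:80130137-80130404). Among genes touched at the start, Ripor2 had 21 tags (32.96-fold, chr13:24501560-24501812) and Bmyc 12 tags (29.66-fold, chr2:25706306-25706462), beside Piwil4. The others of the 25 with the largest folds were Hsd17b11, Pus7l, Fbxl2, Ift80, Kpna3, Prrc2b, Siah3, Wdhd1, Myl12b, Prmt9, Adcy2, Atp23 and Cstf1, at 29.66-fold to 36.25-fold. At 29.66-fold 13 genes were tied, of which the first 4 in alphabetical order are named and 9 are not. No region of these 25 genes had an FDR under 12.14%.

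Most genes that held thin regions held other regions as well. A thin region overlapped 1294 protein-coding genes, and 154 held 2 or more. Counted per region, the overlapped gene had a median span of 91.3 kb for thin regions (interquartile range 38.7 to 213.1) and 79.9 kb for the other autosomal regions (34.4 to 181.1), ranges that largely overlap. In 319 of the 1294 (24.7%) thin regions were the only ones listed. Cdh13, which encodes a cadherin anchored to the membrane by lipid, held the most, 5 of its 24 regions, with 11 to 25 tags. Tcf7l2, a transcription factor gene of the Wnt pathway, held 4 of 16, and Camta1 held 4 of 20. Ptprd, a receptor phosphatase gene of 2271 kb, held 4 of only 6. Thin regions made up 3 of 4 in Erbb4, a receptor kinase gene, and 3 of 5 in Dpp10. In Foxp1, a forkhead transcription factor gene, they were 3 of 28. In all, 22 genes held exactly 3, and 11 of these are named here, by their largest fold; besides those above they were Prkg1, Drosha, which starts microRNA processing, Ap3b1, Eml1, Ttn, Ncoa2, Traf3 and Kcnn2.

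Thin regions were counted in genes of 12 lists and up to 5 kb outside them. They lay at 21 of 232 autosomal genes (9.05%), beside 7.39% of all 20661 autosomal protein-coding genes. Of 20 cartilage matrix and identity genes, 2 had one: Sox5, with 2 of its 21 regions (11 tags at chr6:143917326-143917480 and 23 tags at chr6:144543756-144544037), and Sox6, whose only region (18 tags, 26.37-fold, chr7:115946515-115946751) was thin. Both encode chondrogenic transcription factors. No gene for a cartilage collagen or proteoglycan on that list had one. Any listed region was found at 9 of the 20 genes (45%), beside 49.0% of all autosomal protein-coding genes. Of 21 hypertrophy and ossification genes, 4 had one: Spp1, which encodes osteopontin (19 tags, 37.42-fold, its only region, chr5:104439272-104439465), the alkaline phosphatase gene Alpl (11 tags, 32.96-fold), the pyrophosphate transporter gene Ank (19 tags, 32.96-fold) and Hdac4 (20 tags, 18.22-fold).

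In the signalling lists, counts were 1 and 4. Of 32 BMP and TGF-beta genes only Tgfbr2, the type II TGF-beta receptor gene, had one (25 Control and 6 cKO tags, 11-fold, chr9:116089429-116089677). Of 25 growth plate signalling genes, 4 had one: Lrp5, a Wnt co-receptor (11 tags, 23.07-fold), Igf1r, the insulin-like growth factor receptor (14 and 2 tags, 20.64-fold), Wnt5b (21 and 5 tags, 17.64-fold) and the hedgehog effector Gli2, whose only region it was (21 and 5 tags, 16.99-fold, chr1:119037115-119037381).

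Among 18 autosomal genes of the methylation machinery, Dnmt1, Dnmt3a and Hells had thin regions. Dnmt1 held 2 among 7 regions, with 15 tags (chr9:20935330-20935566) and 22 tags (chr9:20919866-20920136). Dnmt3a, a de novo methyltransferase gene, held 1 of 9 (20 tags, chr12:3859043-3859294). Hells, a chromatin remodeler gene, held 1 of 2 (18 tags, chr19:38942923-38943145). Of 31 imprinted genes only Rtl1 had one (15 tags, 26.37-fold, chr12:109587507-109587715). None of 24 germline genes and none of 10 small heat shock genes had one, beside 7.39% of all autosomal protein-coding genes. With lists this short, the absence is not read as a trait of these genes. Some region lay at 12 and 4 of them (50% and 40%), beside 49.0% of all autosomal protein-coding genes. Piwil4 was not on the germline list. Among marker genes of other cell types, thin regions lay at Col5a1 of the fibroblast list (1 of 14 genes), Kit and Runx1 of the blood list (2 of 14), Tek and Tie1 of the endothelial list (2 of 12) and Ttn of the muscle list (1 of 12). These counts give position only.

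Thin regions lay farther from other listed regions than the other autosomal regions did as a whole, and their nearest neighbour was more often thin. The median distance to the nearest other listed region was 15.7 kb, against 12.0 kb for the other autosomal regions. It was 17856 bp in regions with 25 tags and 20374 bp in those with 26 tags, which are not thin. Another region lay within 10 kb of 1218 thin regions (40.3%, 38.5 to 42.0), against 45.2% (44.6 to 45.7). At 26 to 50 tags the share was 43.0% (41.4 to 44.5), an interval that overlaps that of thin regions. With 25 tags this share was 36.4% (29.6 to 43.8) and with 26 tags 37.7% (31.1 to 44.7). Within 1 kb the order turned, with 297 thin regions (9.82%, 8.81 to 10.9) against 8.47% (8.17 to 8.79) of the others. Regions with 26 to 50 tags (8.48%, 7.66 to 9.38) and those above 200 tags (9.20%, 8.54 to 9.91) overlapped the thin interval here. With 25 tags the share was 7.51% (4.44 to 12.4) and with 26 tags 6.28% (3.63 to 10.7). The nearest region was itself of 25 tags or fewer in 435 cases (14.4%, 13.2 to 15.7), against 8.29% (7.995 to 8.60) for the others. It was so in 11.6% (7.61 to 17.2) with 25 tags, 10.5% (6.88 to 15.6) with 26 tags and 10.1% (9.25 to 11.1) at 26 to 50 tags. Where the neighbour of a thin region was within 1 kb, it had a median of 43 tags, against 93 over all thin regions.

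The density of thin regions over the autosomes ran from 1.05 per Mb on chromosome 2 (95% counting interval 0.90 to 1.21) to 1.54 on chromosome 19 (1.24 to 1.90), a ratio of 1.48. That of the other regions ran from 9.35 on chromosome 14 to 17.94 on chromosome 19, a ratio of 1.92. As a share of a chromosome's regions, thin regions made up 6.83% (5.88 to 7.92) on chromosome 11 and 11.7% (10.1 to 13.6) on chromosome 14. Over the 19 autosomes, the density of thin regions was related to that of the others (Pearson r = 0.65, Spearman rho = 0.63; r = 0.57 without chromosomes 19 and 11). With protein-coding genes per Mb the values were r = 0.18 and rho = 0.23 for thin regions (r = 0.41 without chromosomes 7 and 11) and r = 0.60 and rho = 0.64 for the others (r = 0.76). All chromosomes share the same 2 libraries, and these coefficients are descriptions. The median fold of thin regions was between 23.07 and 28.53 on every autosome. Outside the choice, regions of 25 tags or fewer made up 12.3% of those on X (105 of 854) and 28.0% of those on Y (93 of 332).

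**Figure D4:**
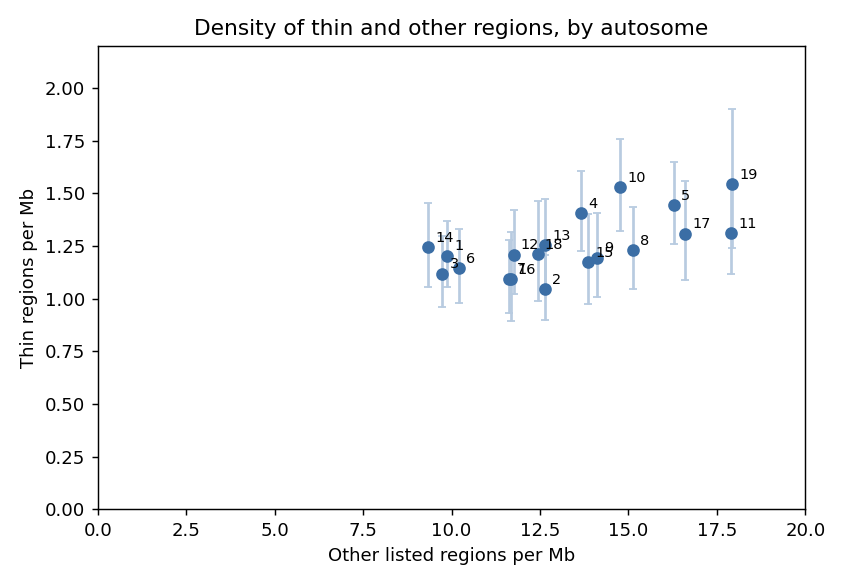
Each point is an autosome, with its other listed regions per Mb on the horizontal axis and its thin regions per Mb on the vertical axis, and bars are exact 95% Poisson intervals. Thin regions run from 1.05 per Mb on chromosome 2 to 1.54 on chromosome 19, which also has the most other regions (17.94), and the points rise together with scatter (r = 0.65).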

How the data were processed

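Methylated DNA captured with MBD2 was sequenced from 1 Control and 1 Uhrf1 cKO library. The authors called regions, per the file headers, with MACS 1.4.2, with cKO as background, at a p limit of 1e-10. Per the file headers, at most 1 tag per position was kept, the larger library was scaled to the smaller, and the fragment shift d was 58 bp. Coordinates are in mm10 (per the submitters' processing notes), and the aligner is not given in the sources used here.

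The tag count as deposited is a whole number of Control tags. The deposited score is 10 times the negative log10 of the caller's Poisson p. The deposited fold, a ratio, divides the Control height at the summit by the local cKO background. The deposited FDR is a percent value from swapping the libraries.

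The cKO background of each region was solved from its tag count and score as the Poisson mean that gives the authors' p, with P(X > tags), over the region length held between 116 and 1000 bp. Because the headers do not write out the formula, it was settled on the file: with it, fold times background times d over length fell within 0.05 of a whole number of tags for 3023 of the 3025 thin regions. The way the caller truncates the tag count was also settled on the file, after its values were seen. The background was then matched, within the rounding of the score, to the genome average or to a whole number of cKO tags in the region, the 1 kb or the 10 kb around it, in that order. The solver was tested on simulated data. Where several matched, the first was kept (335 of 1692 thin regions above the genome average). The rounding spanned a median of 1.9% of a 10 kb step.

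Genes came from the RefSeq table of GRCm38.p6. Strand came from the RefSeq promoter table (16456 protein-coding genes on 18 autosomes, none on chromosome 18). Exons were not analysed here. Repeats and CpG content of the regions need a genome sequence and were not analysed, apart from the CG sites in promoter windows. Intervals are 95% (Wilson for shares, exact Poisson for densities) and cover counting error only. There is 1 library per genotype, so no p-value was computed. The members and the 12 gene lists were chosen with earlier results of these data known. Named genes were Uhrf1, up to 25 genes with a thin region at an end by fold, up to 15 genes with 2 or more thin regions, regions at the extremes of fold (10 highest, 5 lowest), tags (5) and FDR (5), and up to 5 genes per list. Gene models named Gm with digits, ending in Rik or similar were not named. Alternatives were other tag limits, stricter p and FDR limits, joined regions, other windows and overlap rules, another Poisson tail, and the removal of regions shorter than 116 bp, the last chosen after seeing the data. Versions were SciPy 1.17.1, pandas 2.3.3, NumPy 2.4.6, Matplotlib 3.10.9 and Python 3.11.15.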

Additional observations from a re-analysis of the deposited data

How the results depend on the processing

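No paired analysis was possible because there is 1 library per genotype. Of 40 recomputed values, 27 stayed within the counting interval of the reported value, or within 1.5 times it for counts of regions, and 13 did not. The choice of 30 Control tags or fewer moved the median fold from 26.37 to 25.03. A p of at most 1e-15 left 953 regions with a median fold of 31.94. An FDR of at most 5% left 3 regions with a median fold of 52.88, of which 66.7% were intergenic, 0% were at a gene end and 0% were inside a gene, too few to describe place. The share at gene ends was 2.05% with a window of 500 bp and 6.31% with 2 kb, and the share inside genes was 43.4% with 2 kb, as the window's size sets these classes. With only neighbours at an FDR of at most 5%, fewer regions count and the median distance was 32.9 kb. With the Poisson tail P(X >= tags) the median implied background was 1.12 scaled cKO tags instead of 1.30, but only 7.67% of summit heights then came out whole, against 99.9%. A limit of 20 tags, joining of regions within 500 bp, placement by overlap and removal of regions under 116 bp, which was chosen after seeing the data, left the values within these intervals. Depth limits each value: a thin region has at most 25 Control tags, and 1960 of them have an FDR of 100%.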

Other observations

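Values of the deposited list that no comparison above uses concern how often the same numbers recur. Thin regions shared 969 distinct folds among 3025 regions. Control tags at the summit ran from 6 to 25, and the most frequent height was 9, in 567 regions. A median of 58.3% of a thin region's tags (interquartile range 50 to 68.8) was counted at its summit, against 27.3% in the other autosomal regions. Thin regions are also shorter (median 212 bp against 493 bp), so this contrast is tied to the choice by tag count and is description only. Just 12 tags was the commonest count, in 285 regions, and 11 tags occurred in 139.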
